A study of Mus musculus with 6 samples.

Results

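Alpha-defensins are small antimicrobial peptides of the gut, and 6 of their genes, Defa21, Defa22, Defa24, Defa30, Defa31 and Defa39, are described here in jejunal crypt epithelium of mice with and without Sox9. The rule took every probe set whose platform annotation names at least 1 of these genes, alone or with others, which gave 4 of the 45037 probe sets on the array. The genes were selected on the KO against WT difference and the array-by-array signal of several of them in earlier results of these arrays, so their values between the groups are given as a description and carry no test. RefSeq lists 28 protein-coding alpha-defensin genes in the mouse, of which 7 are named on this array: the 6 described here and Defa3. Of the 4 probe sets, that of Defa31 (1422934_x_at) and that of Defa39 (1429378_x_at) carry a single gene name in the annotation. The other pair name 2 genes each, Defa21 with Defa22 (1436857_at) and Defa24 with Defa30 (1450631_x_at). None of the 4 could be tied to particular gene copies, because the array's probe sequences were not used here, and an ending in x marks probes that may also match other transcripts. Gene names below therefore stand for the probe set that carries them, and its signal may come from other copies too.

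Each array came from 1 mouse. The KO group held 3 Sox9-deficient mice (KO 1 to KO 3) and the WT group 3 wild-type littermates (WT 1 to WT 3), and all 6 were 3 months old and of strain C57BL/6 according to the labels. Total RNA of jejunum crypts was labelled with biotin. The labels give neither the way in which Sox9 was removed, nor the sex of a mouse, nor which mutant was a littermate of which control. The strain of each mouse is known here from the labels alone and was not checked. Values are log2 GCRMA intensities, listed in the order 1 to 3 within a group, and the small number of arrays, 3 a group, limits the precision.

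Alpha-defensins of the mouse small intestine are also called cryptdins. They are made by Paneth cells, the granule-filled secretory cells at the crypt base, which release them into the crypt lumen, where they damage bacterial membranes. The precursor peptide is stored in granules and is cut to its active form by the matrix metalloproteinase MMP7. The genes are tandem copies of one another in a cluster on chromosome 8, and the number and kind of copies are known to differ between inbred mouse strains. Sox9 is a transcription factor of the crypt base, and Paneth cells are known to need it.

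The sequence before the start of these genes lets the copies be compared. RefSeq (build GRCm38.p6) gave the upstream sequence of 4 of the 6 genes. Each line below holds the 250 bases before the annotated start, 5′ to 3′ on the plus strand, shown because the genes that share a probe set and the gene named by the probe set that was off in 1 mouse can be set side by side. Capitals mark TATAAA on the printed strand, and matches on either strand to CTTTGA, a core of sites for TCF factors (TCAAAG as printed), and to ACAATG, a core of sites for SOX factors.
Defa21 (chr8:21025295-21025544): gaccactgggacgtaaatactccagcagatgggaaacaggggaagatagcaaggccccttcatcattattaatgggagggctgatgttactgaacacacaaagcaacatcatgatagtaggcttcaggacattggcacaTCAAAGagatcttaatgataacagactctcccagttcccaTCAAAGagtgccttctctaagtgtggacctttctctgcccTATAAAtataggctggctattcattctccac
Defa31 (chr8:21191323-21191572): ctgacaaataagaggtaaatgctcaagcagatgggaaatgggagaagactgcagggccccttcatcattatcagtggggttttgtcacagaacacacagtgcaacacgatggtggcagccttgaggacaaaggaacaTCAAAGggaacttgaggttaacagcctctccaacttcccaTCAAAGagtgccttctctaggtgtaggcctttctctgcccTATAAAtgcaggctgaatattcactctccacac
Defa30 (chr8:21134400-21134649): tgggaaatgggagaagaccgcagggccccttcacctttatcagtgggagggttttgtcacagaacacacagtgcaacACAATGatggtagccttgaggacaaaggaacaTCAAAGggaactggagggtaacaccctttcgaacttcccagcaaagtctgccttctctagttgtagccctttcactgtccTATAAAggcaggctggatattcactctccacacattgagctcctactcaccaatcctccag

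The sequence of Defa22 (chr8:21162027-21162276) was identical to that of Defa21 in all 250 bases and is not repeated. Defa31 shared 198 bases with Defa21 (80.5% of aligned bases, 8 bases in gaps) and 199 with Defa30 (90.9%, 62 in gaps), and Defa30 shared 170 with Defa21 (77.3%, 60 in gaps). Over the 120 pairs of the 16 alpha-defensin genes with an upstream sequence, identity ran from 74.6% to 100% with a median of 83.3%. The 250 bases of Defa31 were also identical to those of Defa23, a gene that no probe set names. TATAAA on the gene's own strand stood in 15 of the 16 sequences, against 7.59% of 32851 mouse sequences of the same length. CTTTGA on either strand stood in 13 of 16, against 13.8% of all, and in each of the 4 genes described here. ACAATG on either strand stood in 1 of 16, that of Defa30, against 10.7% of all. Only these exact letters were searched for, so the count does not show which sequences lack a site for SOX factors. None of the 3 motifs contains another. In Defa21 and Defa22 the TATAAA began 31 bases before the start and the TCAAAG copies 71 and 111 bases before it, in Defa31 these distances were 33, 73 and 113, and in Defa30 the TATAAA began 61 bases before the start and its single TCAAAG 141. In gene order along the chromosome Defa21 was 1st of the 28, Defa30, Defa22 and Defa31 were 6th, 7th and 8th, and Defa39 and Defa24 were 27th and 28th.

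The arrays differed in ways that the groups do not account for. Of the 3 Sox9 probe sets, 1451538_at read 2.44, 2.75 and 2.42 in KO and 7.61, 5.96 and 5.84 in WT, while the other pair had KO means of 5.81 and 3.21 and WT means of 4.76 and 3.31; the labels do not say which of them lies in the deleted part. Y-linked Eif2s3y read 10.10 and 10.12 on WT 1 and WT 2 and at most 2.95 on the other arrays, so no KO array carried Y-linked signal and 2 of 3 WT arrays did. On KO 2 alone, 14 probe sets were at 10 or more that lay under 4 on the other 5 arrays. Most of them name digestive enzyme genes of the exocrine pancreas, such as the trypsin gene Prss2, the elastase gene Cela2a and the carboxypeptidase gene Cpa1, and 1 has no symbol. The Gapdh 3′ minus 5′ difference, which grows as RNA shortens, was 0.91, 0.58 and 0.37 in KO and 0.61, 0.65 and 1.75 in WT. Their part in the values below was not tested. Epithelial crypt markers (8 of 8 measured) had a summed log2 level of 16.87 to 17.20 in KO and 17.12 to 17.24 in WT. They include genes of the whole epithelium, such as Epcam, and the enterocyte sum given below was higher on every array. These sums therefore do not tell crypt from villus cells.

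Signal of the Defa31 probe set was missing in 1 mutant mouse and bright in the other 5 mice. It read 2.95 on KO 1, 14.69 on KO 2 and 16.51 on KO 3, against 15.88, 16.08 and 16.20 in the controls. An array is called off for a probe set under 4, near the GCRMA floor, and on from 10. By that rule KO 1 was off and the other 5 arrays were on, within 1.82 log2 units of each other. KO 2 was the dimmest of the 5, and KO 3 was brighter than every WT array, so the groups overlapped. The KO mean was 11.38 ± 7.36 and the WT mean 16.05 ± 0.16 (SD, n = 3). Their difference was -4.67. Leaving out KO 1 brought it to -0.45, and leaving out KO 3 to -7.23. With arrays weighted by how well each fitted the whole table the difference was -1.35.

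The probe set of Defa21 and Defa22 divided the mice in another way. Its values were 13.83, 1.59 and 1.59 in the mutants and 15.10, 14.98 and 1.60 in the controls. It was thus on in 1 mutant and 2 controls and off in 2 mutants and 1 control, with no array between. KO 1, which was off for Defa31, was on here, and KO 2, KO 3 and WT 3, which were off here, were on for Defa31. The mean was 5.67 ± 7.07 for KO and 10.56 ± 7.76 for WT (SD, n = 3), so the spread inside each group was larger than the difference of -4.89 between them. That difference was -9.37 without WT 3, -8.97 without KO 1 and -2.62 without WT 1. With a term for Y-linked signal, which leaves WT 3 as the control without it, the sign turned to 4.07. Where the signal was present, the KO 1 value lay 1.27 below that of WT 1.

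The probe set named for Defa39 was lower in every mutant than in every control. It read 14.53, 12.92 and 13.43 in the mutants and 15.95, 15.81 and 15.89 in the controls. The controls lay close together and the mutants were both lower and more spread, with KO 1 nearest to the controls. With means of 13.63 ± 0.82 for KO and 15.88 ± 0.07 for WT (SD, n = 3), the difference was -2.25, or 4.77-fold. Leaving out single arrays kept it between -2.71 and -1.90, and it was -2.26 with a term for Y-linked signal. All 6 arrays were on for this probe set, those off for Defa31 or for Defa21 and Defa22 included. In bulk RNA, fewer Paneth cells and less of a transcript in each cell cannot be told apart.

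The probe set of Defa24 and Defa30 was bright in all mice. It read 16.83, 16.48 and 16.82 in the mutants and 16.96, 16.96 and 16.94 in the controls. No mutant reached the level of a control. The KO mean was 16.71 ± 0.20 and the WT mean 16.95 ± 0.01 (SD, n = 3), a measured difference of -0.24 (-0.12 without KO 2). This probe set held the highest value of each array, whether it was saturated was not tested, and no fold is given for that reason. Quantile normalization, which makes the highest values of all arrays equal, set the difference to 0.00. KO 1 thus had top signal on this probe set while it was off for Defa31, and KO 2 and KO 3 had it while they were off for Defa21 and Defa22.

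**Figure D1:**
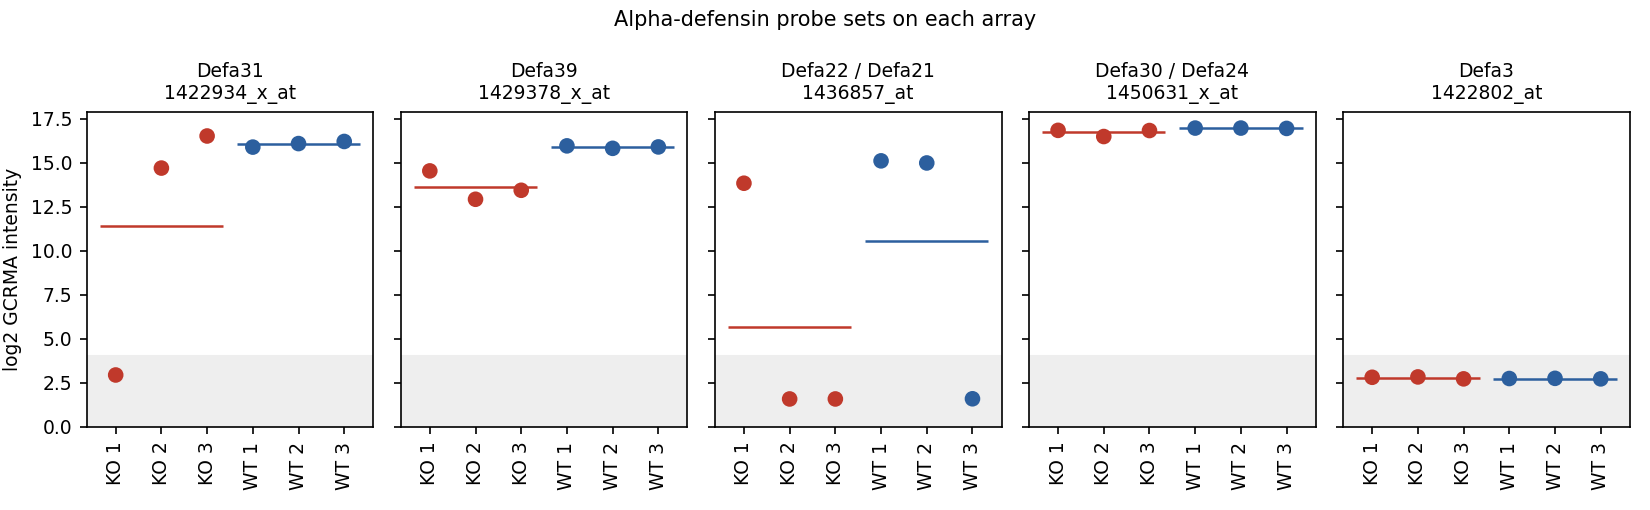
Each point is the log2 GCRMA intensity of 1 mouse on the 4 probe sets of the 6 genes and on that of Defa3, KO in red and WT in blue, with lines at the group means and values under 4 shaded. Defa31 is off in KO 1 only (2.95), Defa22 and Defa21 are off in KO 2, KO 3 and WT 3, and Defa39 is lower in each KO mouse (12.92 to 14.53) than in any WT mouse (15.81 to 15.95).

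Counted together, all 4 probe sets had a negative difference, 3 of them of at least 1 log2 unit, and their median was -3.46 (-1.58 without KO 1, -2.01 with array weights, and -1.24 once Y-linked signal entered the model). Over the 18108 probe sets whose mean reached 4, 8343 were negative, 1.17% were lower by at least 1 and the median was 0.03. All KO arrays lay below all WT arrays in 2 of the 4, those of Defa39 and of Defa24 and Defa30, against 4.03% of all probe sets. As the genes were chosen with this contrast known, nothing is read from these counts. The probe set Defa3 (1422802_at) was off on all arrays, at 2.73 to 2.84, and was not tested.

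The 2 split probe sets had the largest ranges between arrays in the whole table, 13.55 for Defa31 and 13.51 for Defa21 and Defa22. A split probe set has at least 1 array off and at least 1 on, so one under 10 on all arrays cannot be split. There were 35 of 45037, or 0.0777%. The genes were chosen with the array-by-array signal of several of them known, so nothing is read from this rank or share. A bright probe set that falls to the floor also has a wide range by construction. Of the 35 split probe sets, 19 had no array between off and on. Those 19 comprised the 14 on in KO 2 only, most of them of digestive enzymes, 1 each of Eif2s3y and Xist, which follow sex, 1 without a gene symbol that was on in WT 2 only, and the 2 of the alpha-defensins. Each alpha-defensin pattern occurred once among the 19, a count that depends on the limit of 4. The probe set 1420598_x_at, described below, dropped on KO 1 only as well, but to 4.93. Xist, the RNA of the inactive X chromosome, read 9.18, 11.28 and 10.85 in KO and 2.63, 2.64 and 11.20 in WT (1427262_at). Its probe set among the 19, 1436936_s_at, read 12.29, 13.26 and 13.35 in KO and 1.92, 3.72 and 13.17 in WT. Defa21 and Defa22 were off on KO 2, KO 3 and WT 3, where Xist was high, and on where it was low, in WT 1 and WT 2. KO 1 alone broke this pattern, with Xist high and Defa21 and Defa22 on. Defa31, off on KO 1 only, did not follow Xist. The part of sex in these values was not tested, as the term for Y-linked signal leaves WT 3 as the only control without it. H2-T3, a class I-like gene of the major histocompatibility complex, was split in yet another way and is named here after its values were seen: 2.16 on KO 1 and 2.03 on WT 1 against 9.78 to 10.99 on the other 4 arrays. Mice given the same strain and genotype by the labels thus differed in the state of these probe sets, and the part of strain background in the off values was not tested.

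**Figure D2:**
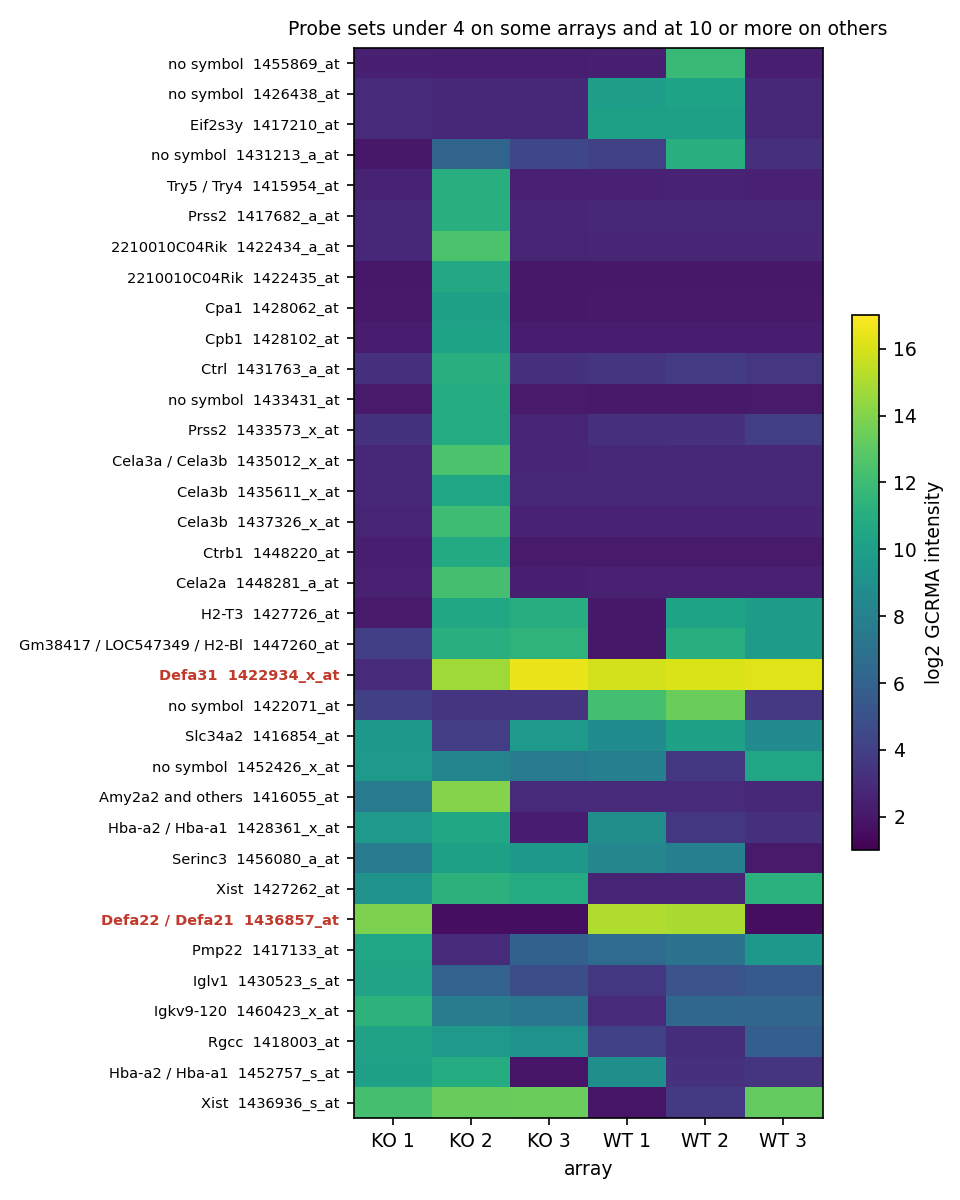
Log2 GCRMA intensity (colour) of the 35 probe sets that were under 4 on at least 1 array and at 10 or more on at least 1, with 1 column for each of the 6 mice and alpha-defensins in red. The Defa31 row is dark in KO 1 alone, the Defa22 and Defa21 row is dark in KO 2, KO 3 and WT 3, and a block of digestive enzyme rows is bright in KO 2 alone.

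Among 1448 probe sets of a single named gene with a range of at least 2, those most like Defa31 over the 6 arrays were Hspa4l (Pearson r = 0.997), Rbm39 (0.995), Steap2 (0.990), Cox7c (0.990) and Prdm2 (0.989). They share the arrays and their normalization with Defa31. As Defa31 had 1 array far below the other 5, each r rests almost wholly on KO 1. Their values on KO 1 were 4.80, 3.76, 3.68, 3.26 and 5.07, each the lowest of the 6 arrays, but their ranges of 2.06 to 2.99 were far smaller than the 13.55 of Defa31. KO 1 was the lowest array by at least 1 log2 unit in 2.54% of the 18108 probe sets. Larger steps of the same kind were seen on 2 probe sets without a gene symbol, looked up after their values were seen. The probe set 1420598_x_at, the most similar of all, read 4.93 on KO 1 and 14.18 to 15.85 on the other 5 arrays. The probe set 1422422_at (r = 0.997) read 9.11 on KO 1 and 14.18 to 15.36 on the others.

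For Defa21 and Defa22 the most similar were Fhit (r = 0.937), Tmem254a (0.915), Mreg (0.911), Tspan6 (0.908) and Casp12 (0.900), with ranges of 2.11 to 3.29 against 13.51. Fhit, for example, read 6.21, 4.52 and 4.10 in KO and 5.55, 5.86 and 4.54 in WT. The probe sets of Defa31 and of Defa21 and Defa22 had r = -0.373 with each other, and those of Defa39 and of Defa24 and Defa30 had r = 0.867, each over the same 6 arrays.

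The genes on either side of the alpha-defensin genes were set beside them, a step chosen after the Defa31 values were seen. The 5 nearest genes with a tested probe set on each side, in RefSeq order, gave 17 probe sets, several of which read the same gene, and each missed the KO against WT test in limma (adjusted p = 0.999). On the side of Defa21, KO 1 was the lowest array on 8 of 11 probe sets, and on the side of Defa24 on 1 of 6, against 27.4% of all tested probe sets. It was lowest by at least 1 unit on 3 of the 11 and 0 of the 6, against 2.54%. Those 3 name 2610005L07Rik, 1 of them with other genes. Most of the 11 name it too, so these counts and shares do not stand for separate genes. On the Agpat5 probe sets of the same side KO 1 was not the lowest array. It read 7.72 against 7.45 on WT 2 (1434287_at) and 10.27 against 9.14 on WT 3 (1453257_at). The largest step, on 1429882_at, was from 6.84 to 7.91 on the other arrays to 4.13 on KO 1. On another probe set of 2610005L07Rik (1429041_at) KO 1 was the highest array, at 7.20 against 7.04 to 7.15. KO 2, KO 3 and WT 3, off for Defa21 and Defa22, did not lie together below the other arrays on 1429882_at, where they read 6.84, 7.15 and 7.69. On other flanking probe sets these arrays did lie together, in either direction. They were below the rest on 1451343_at of Vps36 (8.91 to 9.24 against 9.25 to 9.80). They were above the rest on 1436740_at of 2610005L07Rik (9.89 to 10.30 against 7.94 to 9.71). The part of the flanking region in these states was not tested.

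**Figure D3:**
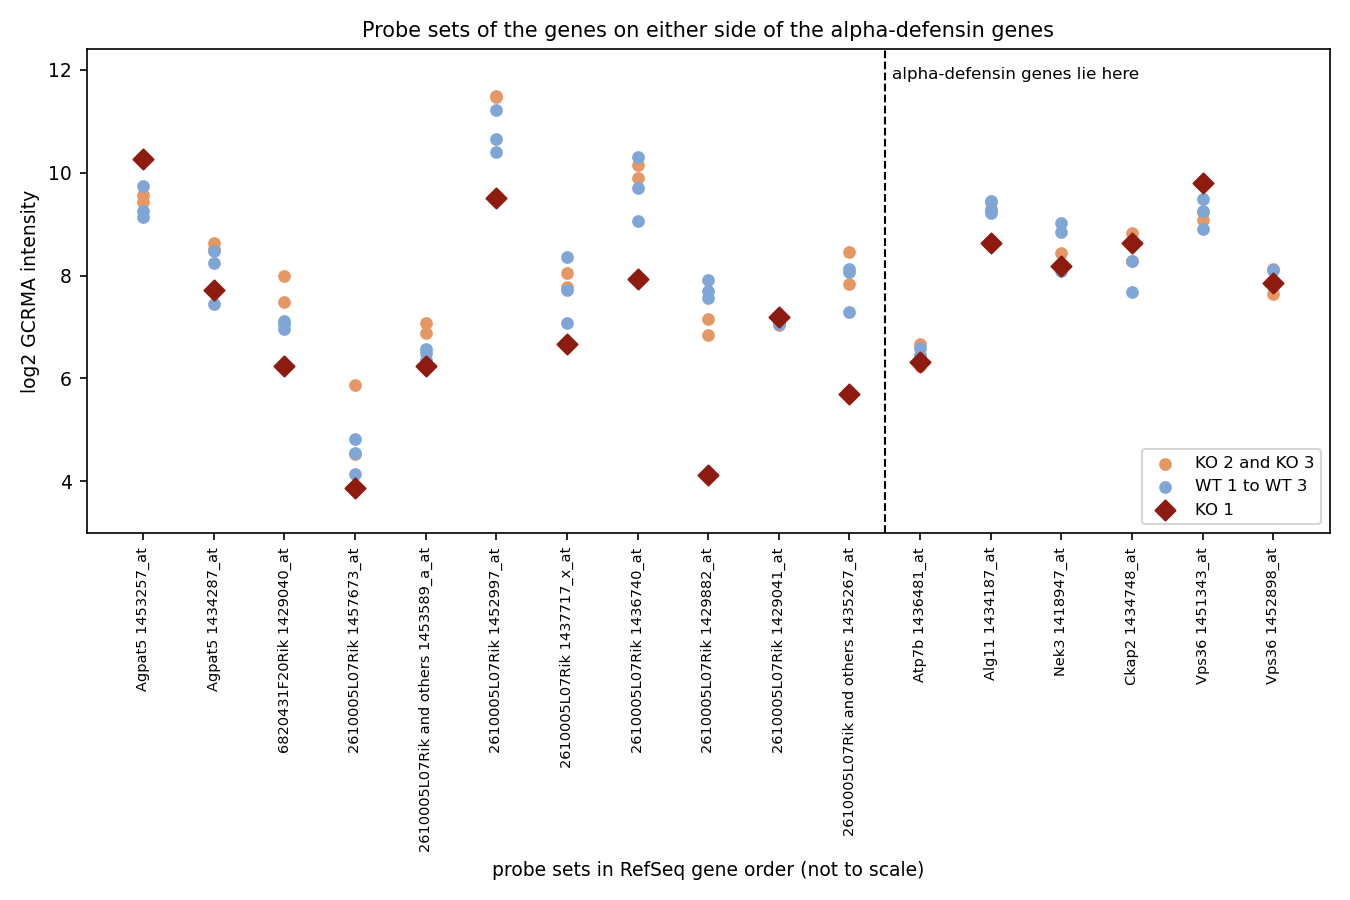
Log2 GCRMA intensity of the 17 tested probe sets of the genes next to the alpha-defensin cluster, in RefSeq order, with KO 1 as dark diamonds and the other 5 mice as circles. KO 1 lies lowest on 8 of the 11 probe sets left of the dashed line and on 1 of the 6 right of it. Most of the 11 name the same gene, 2610005L07Rik.

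The genes that accompany alpha-defensins in Paneth cells were read from lists chosen with earlier results of these data known. Of the 29 genes tested in 4 lists, 0 passed limma's adjusted p of 0.05 over all 18108 probe sets, 9 were lower at an unadjusted p under 0.05 and 0 higher, against 1.81% of all probe sets in each direction; after adjustment 0.0110% of all were called lower. Mmp7, whose product activates alpha-defensins, read 8.60, 6.82 and 8.52 in KO and 13.28, 12.30 and 12.50 in WT. The groups were well apart, with KO 2 lowest, and the difference of -4.71 ± 0.53 (SE) missed the adjusted threshold (limma adjusted p = 0.156). Of the other 4 tested genes of processing and secretion, Sytl2, which encodes an effector of granule transport, differed by -0.60 (limma adjusted p = 0.999) and its groups did not overlap. The potassium channel gene Kcnn4 differed by -0.70 (limma adjusted p = 0.999; -0.42 without WT 1 and -0.43 without KO 3).

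Other secreted products of Paneth cells did not show the on and off states of the 2 split alpha-defensin probe sets. Nor did the probe sets of Defa39 and of Defa24 and Defa30, which were on in all arrays. All 12 measured genes of that list had signal of at least 8 on every array, their median difference was -0.65, and 9 of 12 were negative. Lysozyme, encoded by Lyz1, read 15.63, 15.87 and 16.07 in KO and 16.60, 16.57 and 16.65 in WT (limma adjusted p = 0.914), so lysozyme signal was present in all mice, those off for an alpha-defensin probe set included. The lectin gene Itln1 read 14.97, 15.12 and 15.49 in KO and 15.90, 15.58 and 15.85 in WT (limma adjusted p = 0.999). Nupr1, which stood in the list although it encodes a stress-induced nuclear protein and not a secreted product, differed by -1.17 (limma adjusted p = 0.999). The summed log2 level of the list was 17.50 to 18.00 in KO and 18.15 to 18.36 in WT, so the groups did not overlap in this sum. The sum weighs the brightest genes, such as Lyz1, most. By single genes, all KO arrays lay below all WT arrays in 3 of the 12, against 4.03% of all probe sets.

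Among 11 factors of Paneth cell fate and maturation, 8 were negative with a median of -0.11. Atoh1, the driver of secretory fate, differed by -0.76 (limma adjusted p = 0.937), and Gfi1, which acts downstream of it, by -0.85 (limma adjusted p = 0.999). Bhlha15, a factor of granule-rich secretory cells, differed by -1.21 (limma adjusted p = 0.999; -0.79 without WT 1). All KO arrays lay below all WT arrays in 3 of the 11, these same genes, which were named for their small p, against 4.03% of all probe sets.

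**Figure D4:**
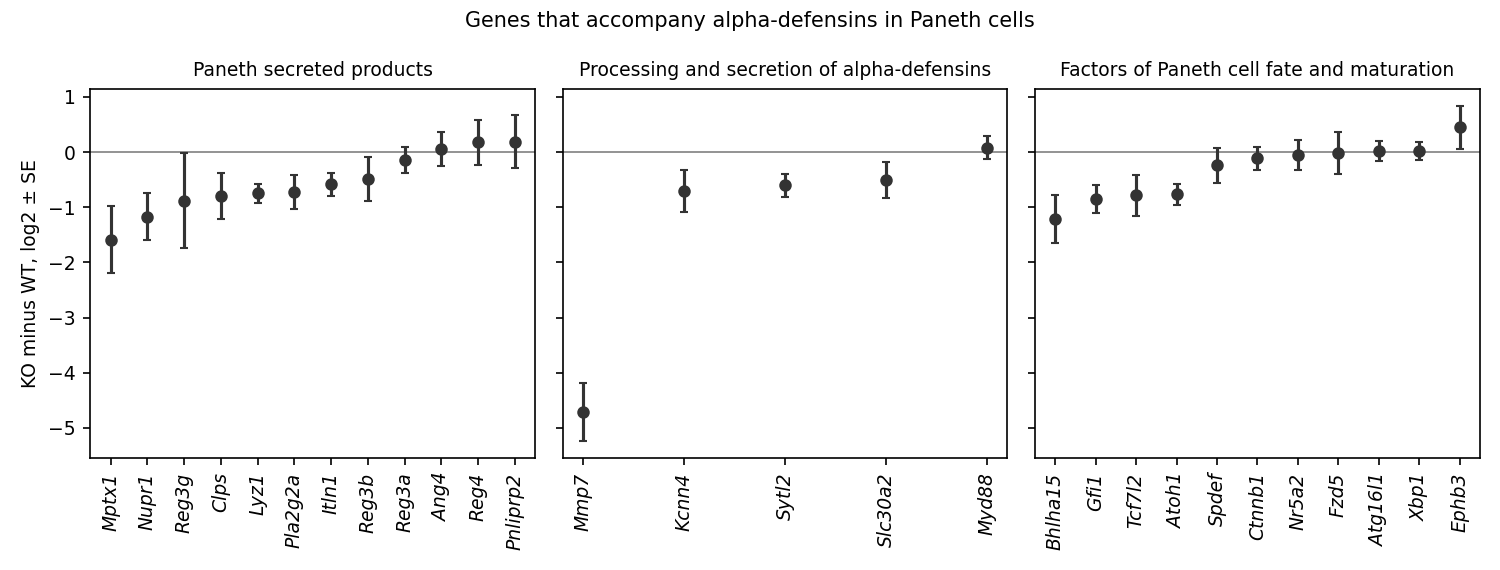
KO minus WT difference (log2, points) with its standard error from limma (bars) for the tested genes of 3 lists, in order of size within a list; values below 0 are lower in KO. Mmp7 stands lowest at -4.71, and the 27 other genes lie between -1.59 and 0.45.

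Beta-defensins, the related peptides of many epithelia, were near the floor in these crypts. Of the 21 probe sets of 20 beta-defensin genes, 19 lay between 2.02 and 3.27 on every array. The others were Defb45, at 4.04 to 4.27, and a probe set of Defb1 that read 5.59 on WT 1 and at most 2.77 elsewhere. Defb45 was the only one tested (-0.08, limma adjusted p = 0.999; -0.02 without WT 2).

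Markers of other cells were compared for the same arrays. Neutrophils make alpha-defensins in some species, and their 7 markers were all under the filter, with a summed log2 level of 5.03 to 5.07 in KO and 5.06 to 5.58 in WT; 4 fibroblast markers were under it too (4.56 to 4.61 and 4.60 to 4.60). Of the plasma and B cell markers 2 of 3 measured were tested, and the summed level was 14.01 on KO 1, the highest of the arrays, 6.59 on WT 1, the lowest, and 10.26 to 11.60 on the others. The part of these cells in the alpha-defensin values was not tested. The T cell sum (3 of 3 markers tested) was 7.67 to 7.85 in KO and 6.08 to 8.16 in WT. The goblet cell sum (6 of 6) was 17.35 to 17.62 and 17.51 to 17.58, and the enterocyte sum (5 of 5) 17.78 to 17.96 and 17.49 to 17.84, in KO and WT.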

How the data were processed

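The authors deposited log2 intensities for 45101 probe sets and 6 arrays. Per the submitters' processing notes they used GCRMA and limma, with versions not given in the sources used here. Weak signals are pulled to a floor by GCRMA, so a lost signal appears as a large step. Column medians were 2.91 to 2.99, and 0 columns went unused. Array controls (64) were left out. Gene names come from the platform annotation: 34945 probe sets had 1 symbol, 932 several and 9160 none. All 6 genes matched RefSeq by gene identifier. Array probe sequences and protein sequences were not used here.

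The difference between KO and WT was tested in limma 3.58.1 under R 4.3.3 (2 groups, two-sided) for probe sets whose mean reached 4, with Benjamini-Hochberg adjustment over all 18108; 4 residual and 2.59 prior degrees of freedom. The p-values describe the spread between these mice. A list gene is read by its brightest tested probe set, and up to 3 genes of smallest p are named per list; summed levels add linear intensities of each gene's brightest probe set. Upstream sequences were aligned globally with Biopython 1.88 (match 1, mismatch -1, gap opening -3, extension -0.5), with gaps left out of identity. The members and lists were chosen with earlier results of these data known. The fit was tested on simulated data.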

Additional observations from a re-analysis of the deposited data

How the results depend on the processing

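The on and off states did not depend on the limits tried: 2 of the 4 probe sets were split with off under 3 or 6, with on from 8 or 12, under quantile normalization and under median centring. That count was 1 to 2 with each array left out, and 1 without KO 1 and KO 2 together, an alternative chosen after seeing the data. The median difference of -3.46 was -2.01 with array weights and -1.24 when Y-linked signal entered as a term, also chosen after seeing the data, and -3.42 to -1.58 with each array left out. That term, which compares the mutants with WT 3 alone, turned the difference of Defa21 and Defa22 to 4.07. The 2 calls over all probe sets became 11 with array weights, 4 under quantile normalization, 1 with a filter at 6, 0 with no filter, 0 with the Y-linked term and 0 to 16 with each array left out. With a replicate block the calls were 0 and the median difference stayed -3.46. Same-numbered mice had deviations from their group means correlated at -0.049, -0.285 and 0.025, against -0.104 to 0.162 for mice of different numbers. With 3 arrays a group these values cannot decide which mice shared a litter. The count of companion genes called was 0 under all 14 alternatives. Defa3 was under the filter, was tested with no filter only and was not called there. Arrays carry no read depth; values near the floor or at the top of the scale bound what can be read from them.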
